A study of Ovis aries with 5 samples.

Results

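Broad H3K4me3 domains are taken here as the regions of the joint H3K4me3 list on sheep chromosomes 1 to 26 that ran for 8 kb or more. The list held 15350 regions on these chromosomes and 16098 with chromosome X. The 621 domains, 4.05% of the autosomal regions, were chosen by their length. Length was measured in the same H3K4me3 libraries as the tags and peak counts below, so those values describe the chosen regions, and no test was run on them. The H3K27ac and H3K27me3 lists were not used by the rule.

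H3K4me3 is the trimethylation of lysine 4 of histone H3, laid down around the transcription start sites of active genes and of genes that are held ready for use. At most promoters it forms a short island on the nucleosomes that flank the start site, while at some genes it spreads far into the transcribed region, and such broad domains are best known from genes that set the identity of a cell type. H3K27ac, the acetylation of lysine 27, marks promoters and enhancers in use. H3K27me3, the trimethylation of the same residue by Polycomb complexes, marks repressed genes, and its presence together with H3K4me3 is called bivalent chromatin, which is typical of developmental regulators. Acetylation and trimethylation cannot sit on the same lysine of 1 histone tail, so an overlap of both in bulk tissue comes from different tails, alleles or cells.

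The study mapped these marks by ChIP-Seq, the sequencing of nucleosomal DNA pulled down with an antibody to the mark, in perirenal adipose tissue, the fat around the kidney. The tissue came from untreated wild type fetuses of pure bred merino sheep at day 132 by the sample labels. Each of 2 fetuses gave 1 H3K4me3 library and 1 H3K27ac library, called replicate 1 and replicate 2 after the animal number in the labels, and pooled input DNA was the control for all 4. The paper counts a further animal for H3K4me3, which was not analysed here. No other tissue, age, breed or treatment was compared. The tissue was profiled in bulk, so a mark carried by fewer cells and a weaker mark in every cell cannot be told apart. The tissue label could not be checked against marker genes here, because no annotation on the genome build of the files, Oar_v3.1, was used. For the same reason no sequence is printed, and genes are named only where the list of selective sweeps in the study names them.

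The H3K4me3 libraries held 92.9 M and 109.7 M tags in replicates 1 and 2 after duplicates were removed. The H3K27ac libraries held 144.0 M and 145.7 M, and the input 26.7 M. With 2 animals per mark and regions of 1 genome that are not replicates, each share stands beside that of all 15350 autosomal regions. Its 95% Wilson interval covers counting error only. Differences between domains and other regions were not tested.

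The 621 domains had a median length of 9987 bp, against 2684 bp for all autosomal regions, with quartiles at 8769 and 12646 bp. They spanned 6.94 Mb in all, or 13.8% of the 50.4 Mb of autosomal H3K4me3 regions. Of the domains, 310 reached 10 kb, 180 reached 12 kb, 77 reached 15 kb and 13 reached 20 kb. The lengths formed 1 continuous tail with no gap at the limit. The 3 shortest domains measured 8000, 8005 and 8007 bp, and the 3 regions just under the limit measured 7994, 7990 and 7990 bp.

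**Figure D1:**
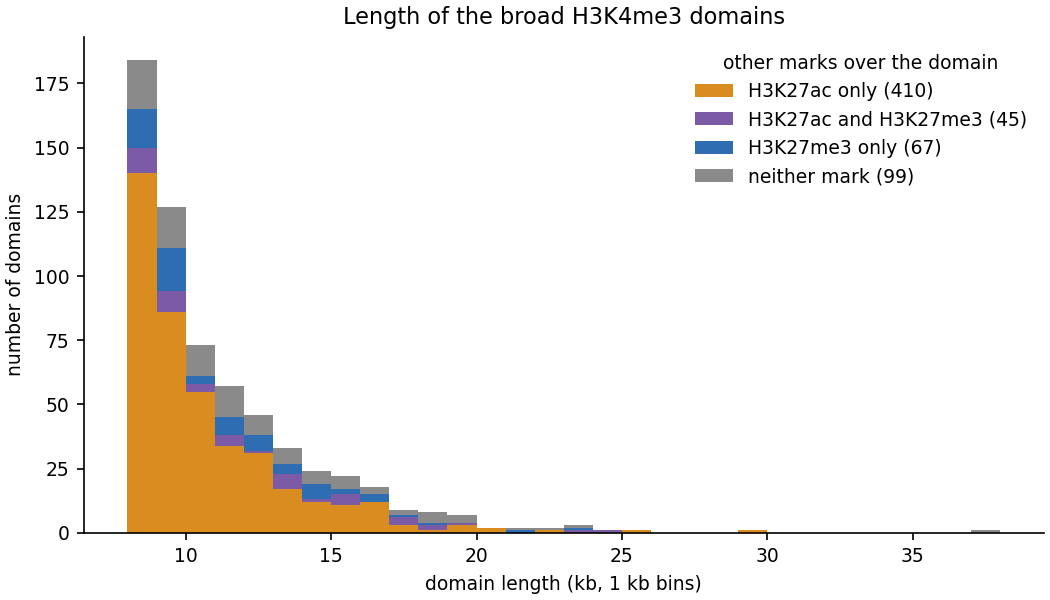
Number of domains (vertical axis) by domain length in kb (horizontal axis, 1 kb bins), stacked by the other marks found over the domain, where H3K27ac means a peak in at least 1 library and H3K27me3 a joint region. Most domains lie near the limit, and 13 of the 621 domains reached 20 kb.

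The longest domain lay on chromosome 14 from 57769251 to 57806441 and was 37190 bp long. It held 194 H3K4me3 tags per kb in replicate 1 and 229 in replicate 2, and neither H3K27ac nor H3K27me3 was called over it. The next, on chromosome 21 from 31087690 to 31116794 (29104 bp), held 166 and 265 tags per kb and had H3K27ac over 11.5% of its length in replicate 2 and none in replicate 1. On chromosome 18 from 13311744 to 13336932 (25188 bp), H3K27ac peaks covered 78.4 and 77.8% of the domain, with 160 and 427 H3K4me3 tags per kb. A domain on chromosome 15 from 60775276 to 60798688 (23412 bp) was covered by H3K27me3 over 100% of its length and had no H3K27ac peak. The longest domains were thus of several kinds, with strong acetylation, with Polycomb methylation or with neither.

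Within a domain, the H3K4me3 signal was often cut into several peaks by the caller. Replicate 1 held a single peak at an FDR of at most 1% in 410 domains (66.0%), 2 peaks in 173, 3 in 32 and 4 or more in 6. Replicate 2 held a single peak in 497 domains (80.03%), 2 in 112, 3 in 11 and 6 in the longest domain. A single peak in each library was found for 332 domains (53.5%, interval 49.5 to 57.4%), against 94.3% of all autosomal regions and 81.0% of the 810 regions of 6 to 8 kb. More than 1 peak in each library was found for 46 domains. Because the rule acts on merged length, regions joined from several peaks are favoured by it.

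The breadth itself differed between the animals. The longest single peak of a domain reached 8 kb in 281 domains in replicate 1 and in 448 in replicate 2. It did so in both libraries for 177 domains, in replicate 1 alone for 104, in replicate 2 alone for 271 and in neither for 69. Peaks filled a median of 87.0% of the domain in replicate 1 and 99.7% in replicate 2, and replicate 2 filled more of the domain in 426 of 621. The outer edges called in the 2 libraries lay a median of 611 bp apart at the lower coordinate and 568 bp at the upper. The highest points lay within 500 bp of each other in 308 domains (49.6%). They lay in the outer 20% of the length at either end for 46.4% of domains in replicate 1 and 41.4% in replicate 2. They lay in the middle 20% for 16.3 and 17.6%. The outer stretches at both ends together are longer than the middle one, so these shares do not show a placement near the edges.

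Per kb of length, broad domains carried about as many H3K4me3 tags as shorter regions. The median was 190 tags per kb in replicate 1 (5th to 95th percentile 80.7 to 283) and 292 in replicate 2 (122 to 481). In regions under 8 kb the medians were 203 and 294. The largest fold enrichment over the input inside a domain, a linear ratio, had medians of 59.5 and 78.8 in the 2 libraries, beside 55.1 and 72.0 for regions under 8 kb. In regions of 6 to 8 kb the medians were 59.5 and 79.3, so the domains did not stand above regions nearest in length. These values are not corrected for depth. The depth of replicate 2 was 1.18 times that of replicate 1, while the median domain had 1.59 times as many tags per kb there, and 514 of 621 domains were higher in replicate 2.

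Of the 5 domains of most tags per kb, 4 are described here. Those on chromosome 3 (125581633 to 125591191), chromosome 19 (56658633 to 56674462) and chromosome 4 (40433244 to 40452753) were covered by H3K27ac peaks over at least 99.5% of their length in each library. The remaining one, on chromosome 1 from 98333774 to 98344436, held 315 and 602 tags per kb and had no H3K27ac peak in either library. At the other end, the domain of fewest tags, on chromosome 5 from 49239920 to 49251029, held 40.2 and 101 tags per kb, and its H3K4me3 peaks filled 36.0 and 65.5% of its length. Among the 5 of fewest tags, 4 had no H3K27ac peak, and 2 of these 4 were covered by H3K27me3 over more than 99%.

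Acetylation of the domains depended on which H3K27ac list was read. A joint H3K27ac region overlapped 277 domains (44.6%, interval 40.7 to 48.5%), against 56.7% of all autosomal H3K4me3 regions. The median domain had 0% of its length in joint H3K27ac regions, and the median over all autosomal regions was 82.2%. In the separate libraries, with peaks at every FDR, H3K27ac lay over 415 domains in replicate 1 (66.8%, against 76.7% of all regions) and 420 in replicate 2 (67.6%, against 64.8%). The median domain was then covered over 84.6% of its length in replicate 1 and 79.96% in replicate 2. Over all autosomal regions these medians were 97.8 and 84.2%.

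Peaks in both libraries were found over 380 domains (61.2%, interval 57.3 to 64.9%), a share near the 62.6% of all autosomal regions and below the 74.2% of regions of 6 to 8 kb. A further 75 domains (12.1%) had a peak in 1 library, against 16.4% of all regions. H3K27ac covered at least 50% of the domain in both libraries for 321 domains (51.7%, against 59% of all regions) and at least 90% in both for 219. Over acetylated domains the largest H3K27ac fold enrichment had medians of 37.4 and 35.9 in the 2 libraries, beside 31.2 and 30.4 over regions under 8 kb.

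The joint list left out domains that were acetylated in both animals. Of the 344 domains with no joint H3K27ac region, 107 had H3K27ac peaks in both libraries, 71 in 1 and 166 in neither. The 107 were 17.2% of the domains, against 6.91% of all autosomal regions and 22.1% of regions of 6 to 8 kb. In 105 of them a peak above the FDR limit of 10% lay over the domain in either library. The joint list is held to that limit, so this count follows largely from how the 107 were chosen. In 100 of the 107 the peaks covered at least 50% of the domain in both libraries. Among domains with an H3K27ac peak, 24.8% in replicate 1 and 29.8% in replicate 2 had one above that limit, against 6.86 and 7.75% among acetylated regions under 8 kb. The FDR of this caller is set by how many peaks of the input reach the same score. Examples are the domains on chromosome 19 and chromosome 4 named among the densest, both at 0% in the joint list.

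Acetylation covered most of the length of many domains, but not of all. Of the 380 domains acetylated in both libraries, 59 were covered over less than 50% in at least 1 library. The other 321 were covered over at least 50% in both. That held for 9060 of the 9605 autosomal regions acetylated in both, and for 527 of the 601 of 6 to 8 kb. On chromosome 14, 4 of the 14 domains acetylated in both were covered over at least 50% in both. In the 410 acetylated domains with no H3K27me3, the mean share covered by H3K27ac was 77.3% in the first 10% of the domain, 81.4% just before its midpoint and 76.8% in the last 10% in replicate 1. In replicate 2 it was 72.8, 80.02 and 75.01%. Full acetylation was also seen in very long domains. On chromosome 26 from 22191629 to 22214031 (22402 bp), a single H3K27ac peak covered 100% of the domain in each library, while H3K4me3 peaks filled 30.5% in replicate 1 and 100% in replicate 2, with 66.2 and 293 tags per kb. The breadth of H3K4me3 in that domain was called in replicate 2 alone.

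H3K27me3 lay over 112 domains (18.0%, interval 15.2 to 21.3%), against 12.9% of all autosomal regions and 16.7% of regions of 6 to 8 kb. It covered at least 50% of 81 domains (13.0%, against 10.2% of all regions). Of the 112, 45 also had H3K27ac in at least 1 library, 34 of them in both (5.48% of domains, against 2.59% of all regions and 5.93% of regions of 6 to 8 kb), and 67 had none. At least 50% of the length was methylated in 59 of the 67 (9.501% of domains, against 7.26% of all regions and 8.02% of regions of 6 to 8 kb). The 67 were almost wholly methylated, with a median of 99.7% of their length covered and at least 90% in 55. In the 45 with both marks the median was 49.9%. Full coverage was seen on chromosome 18 from 30626810 to 30642130. It was also seen in a domain of chromosome 4 (86726865 to 86741000), and neither had an H3K27ac peak. On chromosome 8 from 51772302 to 51789697 (17395 bp), H3K27me3 covered 93.0% and H3K27ac at least 99.8% in each library.

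The remaining 166 domains (26.7%, interval 23.4 to 30.3%) had no H3K27ac peak in either library at any FDR, against 21.1% of all autosomal regions. With the 67 that carried H3K27me3 taken out, 99 domains (15.9%, against 12.9% of all regions) carried neither mark. Their H3K4me3 was well above the input, with a median largest fold of 47.7 in replicate 1 and 56.6 in replicate 2. The nearest H3K27ac peak of the 166 lay a median of 15767 bp away in replicate 1 and 16559 bp in replicate 2, within 5 kb for 37 in each library and over 50 kb for 41 and 44. For regions under 8 kb with no H3K27ac peak the medians were 17107 and 25706 bp.

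The difference between the animals was not the same in each kind of domain. Acetylated domains without H3K27me3 held a median of 192 H3K4me3 tags per kb in replicate 1 and 329 in replicate 2, and the median ratio of replicate 2 to replicate 1 was 1.82 (quartiles 1.35 and 2.33). Domains with both other marks had a median ratio of 1.44, and those with neither 1.45. Domains with H3K27me3 and no acetylation held 180 and 151 tags per kb, with a median ratio of 0.785 (quartiles 0.562 and 1.22), and were higher in replicate 1 in 44 of 67. In that class H3K4me3 peaks filled a median of 95.7% of the domain in replicate 1 and 75.9% in replicate 2. Tags outside called peaks are not counted, so these ratios also follow how much of each domain was called as a peak. In regions under 8 kb the median ratio was 1.57 for acetylated regions without H3K27me3 and 0.995 for H3K27me3 without acetylation, and the classes with both marks and with neither lay between, at 1.31 and 1.30. With 1 library per animal, a difference between the animals and a difference between the immunoprecipitations cannot be told apart.

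**Figure D2:**
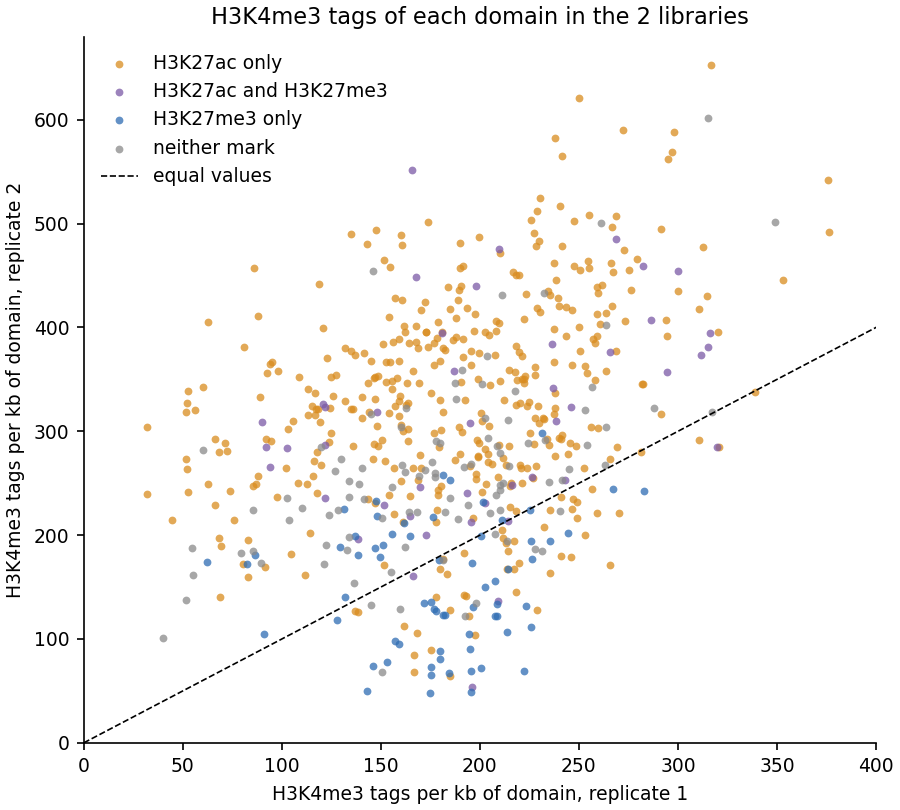
H3K4me3 tags per kb of domain in replicate 1 (horizontal axis) and replicate 2 (vertical axis), not corrected for depth, with 1 point per domain, coloured by the other marks over it, and a dashed line at equal values. Most points lie above the line, 514 of 621, while 44 of the 67 domains with H3K27me3 only lie below it.

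An example of the last class is the domain on chromosome 15 named above. It held 222 tags per kb in replicate 1, in 1 peak over 100% of its length, and 69.4 in replicate 2, in 2 peaks over 28.0%. The domain on chromosome 4 from 86726865 to 86741000 held 175 and 73.0 tags per kb, with 100 and 35.3% of its length in peaks. Per kb of called peak, the chromosome 15 domain held 222 and 248 tags and this chromosome 4 domain 175 and 207. In these 2 domains the lower value of replicate 2 thus went with shorter called peaks. The tags per kb of called peak are not corrected for depth, which was 1.18 times as high in replicate 2. They therefore do not show whether the signal inside the peaks differed. A domain on chromosome 4 from 14250946 to 14260877, covered by H3K27me3 over 99.4%, held 143 and 50.2. These domains were broad in replicate 1 and shorter in replicate 2, the opposite of the domain on chromosome 26.

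The share of regions with acetylation in both libraries was highest at intermediate length over all autosomal regions, as a description. It was 50.2% under 2 kb, 65.7% from 2 to 4 kb, 74.04% from 4 to 6 kb and 74.2% from 6 to 8 kb. Within the broad domains it was 65.9% from 8 to 10 kb, 61.5% from 10 to 12 kb, 55.3% from 12 to 15 kb and 49.4% (interval 38.5 to 60.3%) at 15 kb or more. The share with no acetylation went the other way, from 21.5% at 8 to 10 kb to 38.96% (28.8 to 50.1%) at 15 kb or more. H3K27me3 lay over 16.1% of domains of 8 to 10 kb and 27.3% (18.6 to 38.1%) of those of 15 kb or more. The intervals of neighbouring classes of broad domains overlap for all 3 shares. Without chromosome 14, the share with no acetylation went from 16.8 to 26.2%, with intervals that overlap, and the share acetylated in both from 70.6 to 59.0%.

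**Figure D3:**
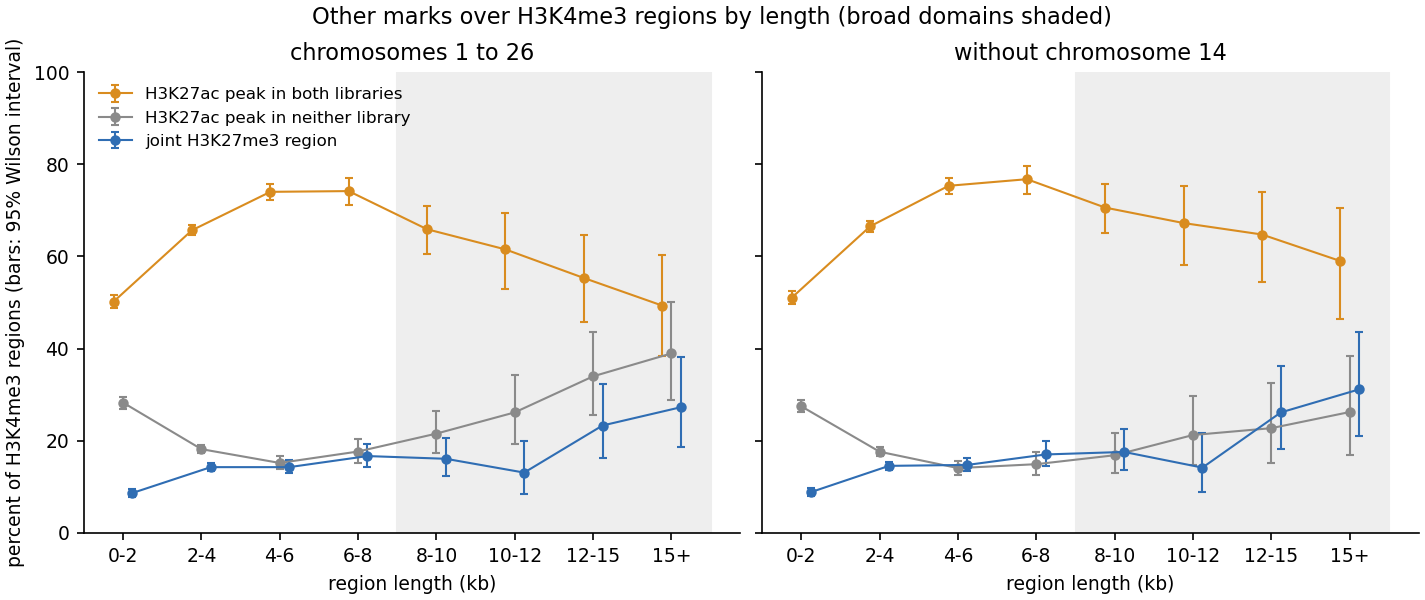
Percent of H3K4me3 regions (vertical axis) with an H3K27ac peak in both libraries, in neither library, or with a joint H3K27me3 region, by region length in kb (horizontal axis), for chromosomes 1 to 26 and without chromosome 14. Bars are 95% Wilson intervals and the broad domains are shaded. Acetylation in both libraries is highest from 4 to 8 kb, and the share with none among the longest domains is lower without chromosome 14.

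The domains were unevenly spread over the genome, and chromosome 14 stood apart. It held 80 domains, 12.9% of the 621, against 5.93% of all autosomal regions. Of its own 911 regions, 8.78% were broad, against 1.46 to 7.22% on the other chromosomes. Its density was 1.28 domains per Mb, against a median of 0.217 and a highest value of 0.578 elsewhere. All joint H3K4me3 regions were also densest there, at 14.5 per Mb, beside 13.1 on chromosome 11. The next shares were 7.22% on chromosome 4 (38 domains) and 5.23% on chromosome 19 (22 domains), and the lowest were 1.46% on chromosome 9 (6 domains) and 1.72% on chromosome 15 (8 domains).

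Chromosome 14 also held most of the domains with neither of the other marks. Of its 80 domains, 59 (73.8%, interval 63.2 to 82.1%) had no H3K27ac peak, which is 35.5% of the 166 such domains. Regions under 8 kb on the same chromosome had none in 34.8%. Of the 99 domains with neither mark, 54 lay on chromosome 14 and the other 45 on 15 chromosomes. Without chromosome 14, 19.8% of broad domains had no acetylation, beside 20.0% of all regions, and 8.32% had neither mark, beside 11.6%. Against all regions, the higher share of unacetylated regions among broad domains was thus not seen over the other chromosomes as a whole. There, 67.7% of domains had H3K27ac in both libraries, beside 63.8% of all regions. Against regions of 6 to 8 kb without chromosome 14, broad domains still had the higher unacetylated share, 19.8% beside 14.9%. The intervals, 16.6 to 23.3% and 12.5 to 17.6%, overlap. The share acetylated in both libraries was lower in broad domains, 67.7% beside 76.8% of regions of 6 to 8 kb. H3K27me3 without chromosome 14 lay over 19.8% of domains (16.6 to 23.3%), beside 13.2% of all regions. In regions of 6 to 8 kb without chromosome 14 it was 17.0% (14.5 to 19.9%), and the 2 intervals overlap.

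**Figure D4:**
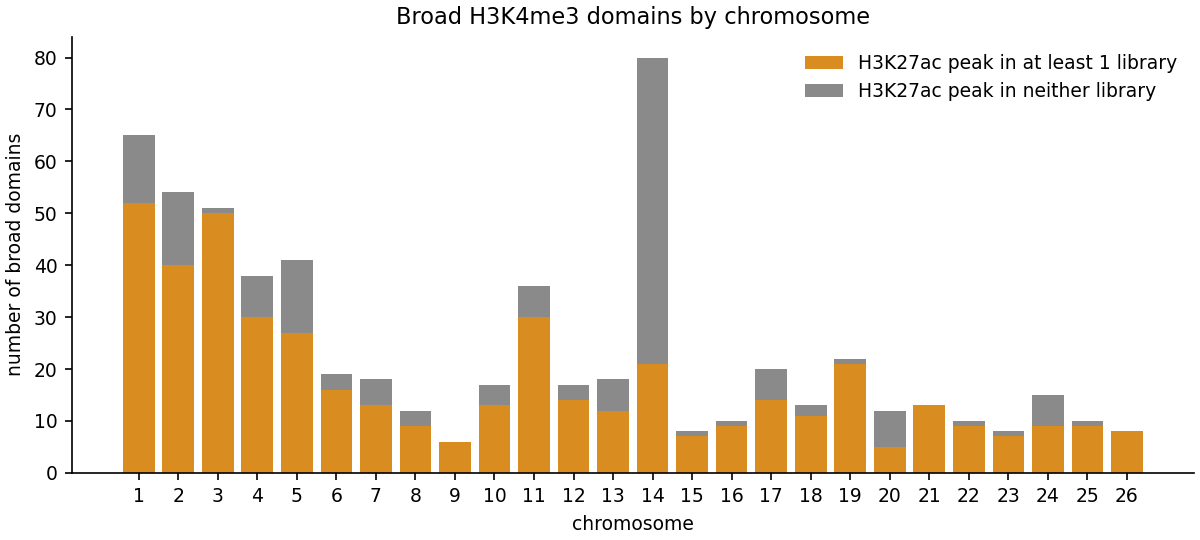
Number of broad domains (vertical axis) on each autosome (horizontal axis), split into those with an H3K27ac peak in at least 1 library and those with none. Chromosome 14 has 80 domains, of which 59 have no H3K27ac peak, while chromosome 3 has 51 domains, of which 1 has none.

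Most domains lay alone, with 428 of 621 having no other within 100 kb and a median gap of 1452 kb. The other 193 formed 65 runs of at least 2, of which 23 held 3 or more. These 23 runs held 109 domains, 73 of them without acetylation, against 26.7% of all 621 domains and 21.1% of all autosomal regions. Of the runs, 9, with 57 domains, lay on chromosome 14, where 73.8% of all domains were without acetylation. The 73 are not split by chromosome here, so they do not show a trait of runs outside chromosome 14. On that chromosome 74 of the 80 domains lay within the last 20 Mb covered by the list. The share of all its H3K4me3 regions that lay there is not given, so this does not set the domains apart from shorter regions. The smallest gap was 13 bp and 15 gaps were under 1 kb, so some neighbours almost touch.

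The 2 largest runs lay next to each other on chromosome 14. The first, from 45977002 to 46419043, held 13 domains, and the second, from 46528105 to 46826055, held 12. Together they spanned 849 kb, with domains over 35.9% of it and a median domain length of 10805 bp. Of the 25 domains, 22 had no H3K27ac peak, 3 had peaks in both libraries, and 1 had H3K27me3. Their H3K4me3 ran from 79.3 to 214 tags per kb in replicate 1 (median 154) and from 171 to 373 in replicate 2 (median 273). H3K27ac was present in the stretch, as 21 peaks in replicate 1 and 19 in replicate 2, of which 3 in each lay over a domain. The 22 domains without it lay 1096 to 21687 bp from the nearest peak in replicate 1 and 1435 to 32829 bp in replicate 2. Of the 41 shorter H3K4me3 regions of the stretch, 16 were acetylated in both libraries, 2 in 1 and 23 in neither.

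**Figure D5:**
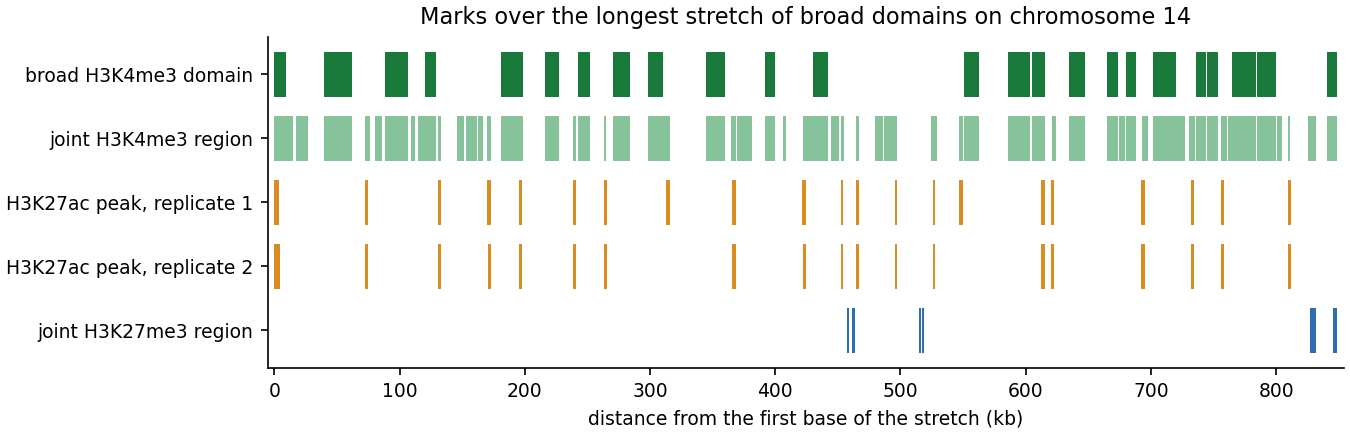
Marks over the 849 kb stretch of chromosome 14 that holds the 2 largest runs, with distance from its first base in kb on the horizontal axis and 1 row per kind of region or peak. Of the 25 broad domains, 22 have no H3K27ac peak inside them, and H3K27ac peaks lie mainly over shorter H3K4me3 regions between them.

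Other runs varied in make-up, and some resembled the chromosome 14 stretch. On chromosome 17 from 43617222 to 43879357, 7 domains lay together, 5 of them without acetylation. H3K27ac covered 4.55 and 3.15% of that run in the 2 libraries, beside 6.59 and 5.76% of the chromosome 14 stretch. On chromosome 11 from 32636251 to 32698524, all 3 domains were without acetylation. On chromosome 19 from 56597887 to 56674462, 4 domains lay in a stretch covered by H3K27ac over 97.8% in replicate 1 and 81.5% in replicate 2. On chromosome 4 from 40417930 to 40461528, 3 domains lay in a stretch covered over 99.9 and 99.2%. A run of 3 domains on chromosome 20 from 30054757 to 30103828 was covered by H3K27me3 over 99.3%. On chromosome 2 from 132842049 to 132941214, 4 domains shared a stretch with H3K27me3 over 54.5% and H3K27ac over 41.6 and 37.8%. The runs named outside chromosome 14 thus differed in which of the other marks lay over them.

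The study listed regions of the genome that bear signs of selection in domestic sheep and named their genes. Broad domains overlapped such a sweep in 8 cases (1.29%), a share near the 1.28% of all autosomal regions. Of the 8 domains, 7 were acetylated in both animals and none had H3K27me3. Among all 621 domains, 61.2% were acetylated in both and 18.0% had H3K27me3. With only 8 domains in sweeps, a difference from these shares was not tested. Of the 8, 6 are described here. The domain in the sweep of ZFC3H1 and THAP2 was the longest of the 8 (15095 bp), with 117 and 316 tags per kb and H3K27ac over 96.2 and 98.2%. ZFC3H1 takes part in the nuclear decay of polyadenylated RNA. In the sweep of TSPAN13, a tetraspanin of the cell membrane, a domain of 11957 bp held 182 and 379 tags per kb.

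In the sweep of ARGLU1, a regulator of splicing and of nuclear receptor activity, a domain of 9522 bp had no joint H3K27ac region, while H3K27ac peaks covered 100% of it in each library, with 44.6 and 214 H3K4me3 tags per kb. Domains in the sweeps of ABLIM3, an actin-binding protein, and of EXOC8 and SPRTN, of the exocyst and of DNA-protein crosslink repair, were covered by H3K27ac over at least 84.9% in each library. The exception was the sweep of AHR, the aryl hydrocarbon receptor, a transcription factor that senses small aromatic ligands. Its domain, on chromosome 4 from 25879946 to 25890202, held 60.2 and 282 H3K4me3 tags per kb and no H3K27ac peak, with the nearest peaks 405 and 432 bp outside it. Overlap with a sweep does not show which gene a domain belongs to.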

How the data were processed

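ChIP-Seq libraries for H3K4me3 and H3K27ac from 2 fetuses were grouped by the mark and animal number in the labels. The authors mapped reads to Oar_v3.1 and called peaks per library with MACS 1.4.2 against 1 pooled input. The deposited peak lists give the count of tags in each peak after duplicate removal, a ratio to the input (fold enrichment), the FDR in percent, and a score derived from the p-value. Joint region lists for the 3 marks H3K4me3, H3K27ac and H3K27me3 were deposited too. When overlapping peaks of replicates 1 and 2 were merged with the FDR held at 1% or less, they gave each of the 16098 joint H3K4me3 regions. The names of the other lists give limits of 10% for H3K27ac and 5% for H3K27me3, and the methods of the study state stricter limits for H3K4me3 and H3K27ac than those of the lists. The 2 files of H3K27me3 peaks per library were not used, as the labels give no sample for them.

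Domains are joint H3K4me3 regions whose end minus start was at least 8000 bp. Tags per kb are the tags of peaks at an FDR of at most 1% inside the domain divided by its length. Overlap means at least 1 bp. H3K27ac was read from the joint list and from the peaks of each library at every FDR. Domains less than 100 kb apart form a run. Positions are 1-based.

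Values per library rest on the 92.9 M to 145.7 M tags of the headers, and the lists hold no reads. Intervals are 95% Wilson intervals, which cover counting error only. No test was run. The domains named are the 10 longest, the 5 of most and of fewest tags per kb, the 5 of highest and lowest H3K27ac coverage, the 5 of highest H3K27me3 coverage, the 3 on each side of the limit and those in sweeps. The text gives examples of each, some named domains are not reported here, and other domains and runs were picked after their values were seen. Domains and rules were chosen with earlier results of these data known. The alternatives covered the length limit, the FDR limits, single libraries, linking of neighbours, the overlap that counts, the scale of the tags, and chromosomes X and 14. The overlap code was tested on simulated data, where coverage and distance were right for 60 of 60 intervals. Scripts ran in Python 3.11.15 with scipy 1.17.1, pandas 2.3.3 and numpy 2.4.6, and figures were drawn with matplotlib 3.10.9.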

Additional observations from a re-analysis of the deposited data

Results flagged for a closer look

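Chromosome X was left out of the domains described, and it held H3K4me3 regions of 8 kb or more as well, which is why it is given here. There were 38 such regions among 748 on X (5.08%), with a median length of 9684 bp and a longest of 17609 bp. All 38 overlapped a joint H3K27me3 region, 37 over at least 50% of their length and 27 over at least 90%, and the median coverage was 97.4%. H3K27ac peaks lay over 16 of them in both libraries, over 5 in 1 library and over 17 in neither. The shares of shorter X regions with H3K27me3 or H3K27ac are not given here, so these counts are not shown to be particular to the long regions. The median was 115 H3K4me3 tags per kb in replicate 1 and 232 in replicate 2, with a median ratio of 2.20, against 1.67 in shorter regions on X. The longest, on X from 28120895 to 28138504, was covered by H3K27me3 over 93.3% and by H3K27ac over 70.5 and 20.1%.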

How the results depend on the processing

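The number of domains was 621 at the 8 kb limit, 1431 at 6 kb and 310 at 10 kb. It was 297 to 452 with 1 H3K4me3 library alone, and 177 when a single peak of 8 kb had to be called in each library. The share with a joint H3K27ac region, 44.6%, was 49.2% at 6 kb, 36.6% when at least 50% of the domain had to be covered, 61.5% when the H3K27ac peaks of both libraries were merged with no FDR limit, and 66.8 to 67.6% with 1 H3K27ac library alone. It was 48.8% without chromosome 14. The median coverage by H3K27ac, 0%, was 80.7% with no FDR limit and 79.96 to 84.6% with 1 library. The share with H3K27me3, 18.0%, was 14.1% for domains with a single peak of 8 kb in each library and 13.0% when at least 50% had to be covered. The share held by 1 peak in each library, 53.5%, was 69.0% at 6 kb, 45.8% at 10 kb and 30.3% with peaks at every FDR. The median of the tags per kb averaged over both libraries, 238, was 190 to 292 with 1 library, 269 per kb of called peak and 2.33 after scaling to 1 M tags of the library, which is another unit. In all, 26 of 45 alternative values stayed within the limits set for a change, which were wide. Counts of 452 (replicate 2 alone), 697 (no FDR limit) and 841 (regions under 1 kb apart linked) passed as unchanged from 621. The tag medians of 190 and 292 passed too, and several others were medians of 0%. The 26 are thus no measure of stability. The alternatives without chromosome 14 and per kb of called peak were chosen after seeing the data. No paired analysis was possible because no result comes from a test.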
